A study of Mus musculus with 8 samples.

Results

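*Serpinb3a*, *Serpinb3b*, *Serpinb3c* and *Serpinb3d* are paralogs of each other and mouse orthologs of the human squamous cell carcinoma antigens, and lie side by side on chromosome 1. They were selected on their symbols after their difference between control and *Rora* EKO epidermis was known, so the values of that difference are given below as a description and not tested. They are 4 of the 55416 genes in the count table, of which 54749 were found in the GENCODE M39 annotation. RNA sequencing was done on dorsal epidermis of mouse pups at postnatal day 4. The 4 control libraries (A1, B1, C1 and C6) carry the genotype label WT, and it is not stated for these libraries that they came from littermates. The 4 *Rora* EKO libraries (A3, B4, C2 and C3) are labelled as knocked out for *Rora* in the epidermis. The mice were made by crossing a floxed *Rora* strain with K14-Cre, a transgene whose keratin 14 promoter is active in basal keratinocytes, whose progeny inherit the deletion. The epidermis was lifted off the dermis after brief heating, so each library is a bulk sample of all epidermal layers. A higher level in such a sample can come from more cells of a type or from more RNA per cell, which cannot be told apart.

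Clade B serpins are protease inhibitors that stay inside the cell or leave it without a signal peptide. A serpin offers an exposed stretch, the reactive centre loop, to a protease as bait, and the residues in that loop decide which protease is trapped. Between them, the human members SERPINB3 and SERPINB4 inhibit lysosomal cysteine proteases, such as cathepsin L and cathepsin S, and serine proteases, such as cathepsin G and mast cell chymase. They are made by keratinocytes of the upper epidermis and are known for their high levels in psoriasis and atopic dermatitis.

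The 4 mouse proteins differ most in the loop that meets the protease. Each gene codes for 387 residues except *Serpinb3c*, which codes for 386. Protein identity was 86.6% between *Serpinb3a* and *Serpinb3b*, 85.0% between *Serpinb3b* and *Serpinb3c*, and 75.5% between *Serpinb3c* and *Serpinb3d*, the most distant pair. The loop was located as the stretch from the conserved Glu-Glu-Gly of its hinge to the His-Pro-Phe behind it. In it, 13 of 31 positions (41.9%) were the same in all 4 proteins, against 251 of 356 (70.5%) outside it. *Serpinb3a* and *Serpinb3b* shared 93.5% of the loop, *Serpinb3c* shared 67.7% with either of them, and *Serpinb3d* shared 51.6% with *Serpinb3a* and *Serpinb3b* and 41.9% with *Serpinb3c*. The coding bases of the loop are printed because they set the 4 inhibitors apart. They run 5′ to 3′ on the minus strand of GRCm39, with capitals for the codons at which the 4 proteins do not all have the same residue. They lie in the coding part of the last exon of each gene, at chr1:106973812-106973904, chr1:107082165-107082257, chr1:107199425-107199514 and chr1:107005989-107006081 in the order printed.
Serpinb3a: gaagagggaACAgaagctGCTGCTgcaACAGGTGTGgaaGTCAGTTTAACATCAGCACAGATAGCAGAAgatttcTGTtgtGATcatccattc
Serpinb3b: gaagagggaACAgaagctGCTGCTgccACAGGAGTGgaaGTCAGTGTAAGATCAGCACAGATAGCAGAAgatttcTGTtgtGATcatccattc
Serpinb3c: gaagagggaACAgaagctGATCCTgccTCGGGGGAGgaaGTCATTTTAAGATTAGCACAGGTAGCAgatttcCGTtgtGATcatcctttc
Serpinb3d: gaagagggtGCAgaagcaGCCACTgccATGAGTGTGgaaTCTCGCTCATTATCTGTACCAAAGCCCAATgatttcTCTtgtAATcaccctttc
The *Serpinb3c* loop is 1 codon shorter, at 30 residues. The first codons, which form the hinge, and the last ones are mostly in lower case, and the middle of the loop is nearly all in capitals.

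**Figure D1:**
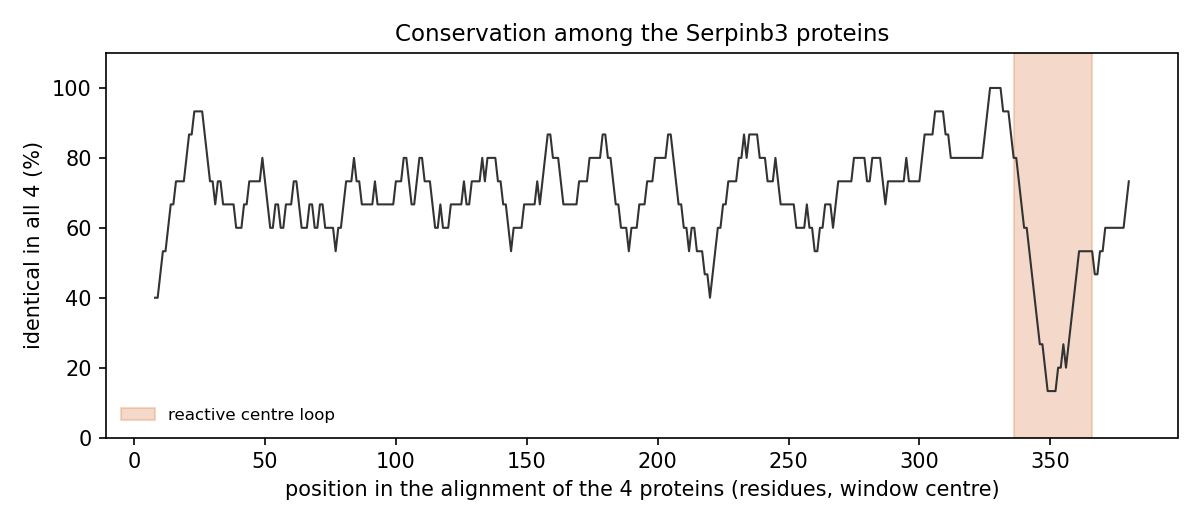
Share of positions with the same residue in all 4 Serpinb3 proteins (vertical axis, percent) along their alignment (horizontal axis, residues), in sliding windows of 15 residues. The shaded band is the reactive centre loop, where the share falls to its lowest value, 13.3%.

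The 4 genes point the same way, on the minus strand, in the order *Serpinb3a* (chr1:106973317-106980033), *Serpinb3d* (chr1:107005897-107011236), *Serpinb3b* (chr1:107081670-107206101) and *Serpinb3c* (chr1:107198930-107206101). The *Serpinb3b* gene is drawn across *Serpinb3c* because transcript Serpinb3b-202 starts at the 45-base first exon of *Serpinb3c* and skips 118524 bases to the second exon of *Serpinb3b*. Transcript Serpinb3b-201 begins at its own first exon, at position 107088844. The 105 bases before the *Serpinb3c* start are shown beside the most similar stretch near each of the other genes, found by sequence alone. The base that corresponds to the *Serpinb3c* start was 34 bases before the annotated start of *Serpinb3a* and 10 before that of *Serpinb3b*. Whether transcription begins at the matched stretches was not tested. The stretches are read 5′ to 3′ on the minus strand of GRCm39, at chr1:106980068-106980172, chr1:107088855-107088959, chr1:107206102-107206206 and chr1:107011866-107011970, with the letters TATAAA in capitals.
Serpinb3a: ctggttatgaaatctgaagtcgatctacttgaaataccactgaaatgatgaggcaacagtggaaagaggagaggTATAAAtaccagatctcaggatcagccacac
Serpinb3b: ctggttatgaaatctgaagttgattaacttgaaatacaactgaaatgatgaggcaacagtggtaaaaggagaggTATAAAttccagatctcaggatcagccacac
Serpinb3c: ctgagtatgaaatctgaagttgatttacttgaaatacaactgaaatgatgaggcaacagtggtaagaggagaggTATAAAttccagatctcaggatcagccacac
Serpinb3d: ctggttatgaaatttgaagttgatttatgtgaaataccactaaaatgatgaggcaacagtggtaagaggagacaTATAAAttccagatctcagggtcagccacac
*Serpinb3b* differed from *Serpinb3c* at 4 of the 105 bases, *Serpinb3a* at 7 and *Serpinb3d* at 10, and TATAAA began at base 75 in all 4. For *Serpinb3d* this stretch lies upstream of the annotated gene. With the 45 bases of the first exon included, the match of 150 bases was 90.0%, and the base that corresponds to the *Serpinb3c* start was 629 bases before the start that the annotation gives *Serpinb3d*. That annotated model has 7 exons and no noncoding first exon, whereas *Serpinb3c* and Serpinb3b-201 have 8 exons with the first noncoding.

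Over a longer window, from 250 bases before to 50 bases after the annotated start, *Serpinb3b* and *Serpinb3c* were 90.0% identical, *Serpinb3a* and *Serpinb3b* 79.3%, and *Serpinb3a* and *Serpinb3c* 74.6%. The window at the annotated start of *Serpinb3d* was 32.5 to 37.8% identical to the other 3. Placed instead on the matched stretch, which was picked for its similarity to *Serpinb3c*, it was 85.7% identical to that of *Serpinb3c*. The windows of *Serpinb3a*, *Serpinb3b* and *Serpinb3c* were the same in the RefSeq promoter table (GRCm38.p6). Both strands were searched for the ROR element, which is the nuclear receptor half-site AGGTCA preceded by the A/T-rich bases that monomeric ROR receptors prefer. No window of the 4 genes held it, and 72 of 32851 RefSeq promoters (0.2%) did. The half-site alone, AGGTCA, occurred once on the reverse strand in *Serpinb3b* at -196, and in *Serpinb3c* and the matched stretch of *Serpinb3d* at -186, and did not occur in *Serpinb3a*. The annotated window of *Serpinb3d* held it on the forward strand at position 8 after the start. It was found in 16.3% of RefSeq promoters. No window of the 4 genes held the STAT6 form of the interferon-gamma activated site (7.0% of promoters), its STAT3 form (8.3%) or the AP-1 element TGANTCA (7.8%). TATAAA was in 13.6% of promoters.

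Library totals ran from 17286924 to 26705532 expected counts. *Rora* itself gave 158, 193, 187 and 309 CPM (the count scaled to the effective size of its library) in control libraries A1, B1, C1 and C6, and 154, 189, 237 and 206 CPM in *Rora* EKO libraries A3, B4, C2 and C3. These overlap (log2 fold change -0.11, SE 0.25, adjusted p = 0.877, edgeR quasi-likelihood test). The counts cover the whole gene and the deleted exons are not given in the sources used here, so the *Rora* level is no check of the labels. *Bmal1*, a known direct RORα target named here after its values were seen, fell from 17.6 ± 3.74 CPM in control to 3.32 ± 0.589 CPM in *Rora* EKO libraries (adjusted p = 0.000238, edgeR). *Xist* was above 1 CPM in 2 of 8 libraries, controls C1 and C6, and at most 0.0546 CPM in the rest. *Rora* EKO library B4 stood apart in stress keratins, with 356 CPM of *Krt6b* against 42.3 to 86.0 CPM in the other *Rora* EKO libraries. Keratinocyte markers had the highest summed level of the marker lists in every library, 46000 to 71200 CPM in control and 86200 to 108000 CPM in *Rora* EKO libraries. These ranges did not overlap. None of the 7 keratinocyte markers passed the cutoffs, and 2 of them were higher in every *Rora* EKO library than in any control library. Whether the level of these markers bears on the *Serpinb3* values was not tested.

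Every *Serpinb3* paralog was higher in each *Rora* EKO library than in any control library. Among the paralogs above the count floor in control, *Serpinb3c* stood furthest apart, and *Serpinb3a* and *Serpinb3b* were present in control epidermis and higher in *Rora* EKO epidermis. *Serpinb3d* was close to undetected in control, so its fold has only a lower bound. All 4 genes passed the filter on low counts, *Serpinb3d* through the *Rora* EKO libraries alone. Of the 4, 3 were past both cutoffs (adjusted p below 0.05 and a fold change above 1.5) on the higher side, where 2.3% of the 13147 genes tested stood, with 3.22% past them on the lower side. All 4 had libraries that did not overlap, which held on the higher side for 5.4% of genes tested. Since the 4 were chosen by this contrast, nothing is read from these counts.

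*Serpinb3c* gave 4.95, 4.26, 5.59 and 3.34 CPM in control libraries A1, B1, C1 and C6, and 199, 195, 252 and 237 CPM in *Rora* EKO libraries A3, B4, C2 and C3. The control libraries were all low and close together, and the lowest *Rora* EKO library was 35.0 times the highest control library. The control mean was 4.53 ± 0.962 CPM and the *Rora* EKO mean 221 ± 28.4 CPM (SD, n = 4), which is a fitted log2 fold change of 5.61 (SE 0.18). In counts this was 78 to 130 per control library and 3042 to 5238.68 per *Rora* EKO library.

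*Serpinb3a*, the most abundant paralog in either genotype, gave 107, 195, 153 and 216 CPM in the control libraries in the same order, and 549, 389, 522 and 500 CPM in the *Rora* EKO libraries. Control library A1 was lowest and the *Rora* EKO library nearest to the controls was B4, at 1.80 times the highest control. The control mean was 168 ± 48.3 CPM and the *Rora* EKO mean 490 ± 70.3 CPM (SD, n = 4), and the fitted log2 fold change was 1.55 (SE 0.25).

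*Serpinb3b*, whose loop is nearly that of *Serpinb3a*, gave 34.1, 65.5, 71.6 and 75.3 CPM in control and 102, 104, 119 and 131 CPM in *Rora* EKO libraries. Again A1 was the lowest control library, well below the other controls, and the groups were separated by a gap of 1.36 times. The control mean was 61.6 ± 18.8 CPM and the *Rora* EKO mean 114 ± 13.8 CPM (SD, n = 4), and the fitted log2 fold change was 0.89 (SE 0.28). This is the paralog that was not past both cutoffs. Its side of the cutoffs depended on the fit: it was past them with the title letter as a block (log2 fold change 0.94), with *Xist* as a covariate (1.23), with DESeq2 (0.91), with all genes of at least 1 count kept and without control A1.

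*Serpinb3d*, the paralog with the most divergent loop, had 0, 2, 2 and 0 counts in control libraries A1, B1, C1 and C6, and 64, 41, 16 and 26 counts in *Rora* EKO libraries A3, B4, C2 and C3. Every control library was at or under the floor of 3 counts, the limit that a count of 0 allows. Scaled, the *Rora* EKO libraries held 4.18, 1.68, 0.771 and 1.30 CPM, with A3 highest. Their mean of 1.98 ± 1.51 CPM (SD, n = 4) was at least 14.9-fold higher than the control libraries would be at 3 counts each (0.133 CPM on average), and at least 9.80-fold higher without library A3. These limits cover counting error only. It was not past both cutoffs with *Xist* as a covariate or without both *Xist*-expressing controls.

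**Figure D2:**
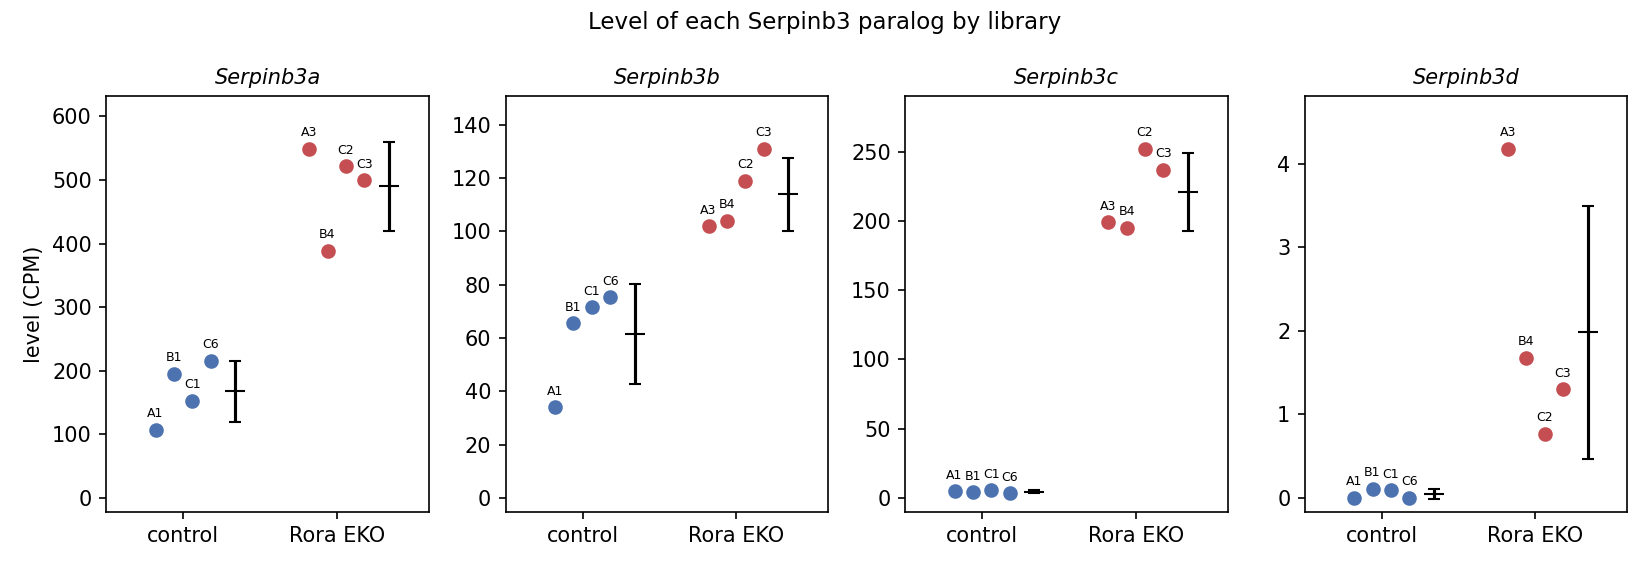
Level of each *Serpinb3* paralog (CPM, linear axes that differ between panels) in the 4 control (blue) and 4 *Rora* EKO (red) libraries. Points are libraries, labelled by replicate, and the bars give mean ± SD. In each panel every *Rora* EKO point lies above every control point, and the gap is widest for *Serpinb3c*.

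The size of the difference is given by the first letter of the sample titles, whose meaning the labels do not give. Its direction there follows from the lack of overlap between genotypes. For *Serpinb3c* the *Rora* EKO level was 40.1 times the control level for letter A, 45.8 times for B and 54.9 times for C, where letters A and B hold 1 library of each genotype and C holds 2. *Serpinb3a* stood 5.15, 2.0 and 2.77 times higher, and *Serpinb3b* 2.99, 1.59 and 1.70 times higher. For *Serpinb3d* the lower bounds were 36.6, 10.3 and 8.13 times. For *Serpinb3a* and *Serpinb3b* the largest ratio was in letter A, which holds the low control library A1. Without both *Xist*-expressing controls, the log2 fold changes were 1.75 for *Serpinb3a*, 1.24 for *Serpinb3b* and 5.63 for *Serpinb3c*, and *Serpinb3d* was at least 14.8-fold higher. Without library B4 they were 1.64, 0.93 and 5.66, and at least 15.6-fold. The direction without these libraries follows from the same lack of overlap.

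Per kilobase of spliced length, which lets the paralogs be set against each other, their order differed between genotypes. In control epidermis the order was *Serpinb3a* (103 ± 29.6 CPM per kb), *Serpinb3b* (37.3 ± 11.4), *Serpinb3c* (2.73 ± 0.580) and *Serpinb3d* (0.0419 ± 0.0487, at the floor; SD, n = 4). In *Rora* EKO epidermis it was *Serpinb3a* (301 ± 43.1 CPM per kb), *Serpinb3c* (133 ± 17.1), *Serpinb3b* (69.0 ± 8.32) and *Serpinb3d* (1.63 ± 1.24). Each order held in 4 of 4 libraries of its group, and no neighbours in it overlapped: the lowest *Serpinb3c* level in *Rora* EKO, 118 CPM per kb, was above the highest *Serpinb3b* level, 79.5 CPM per kb.

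The make-up of the family therefore differed as well as its amount. The summed level of the 4 paralogs was 143 ± 39.3 CPM per kb in control and 505 ± 56.6 CPM per kb in *Rora* EKO epidermis. *Serpinb3c* made up 3.3, 1.6, 2.4 and 1.1% of that sum in controls A1, B1, C1 and C6, and 22.9, 28.0, 27.9 and 27% in *Rora* EKO A3, B4, C2 and C3. *Serpinb3b* went from a mean share of 25.9 ± 3.3% to 13.7 ± 1.5%, although its own level was higher, and *Serpinb3a* from 71.9 ± 3.4% to 59.5 ± 3.5% (SD, n = 4 each). The shares of these 3 paralogs did not overlap between genotypes. *Serpinb3d* stayed below 1% everywhere, at most 0.66% in A3. The ratio of *Serpinb3a* to *Serpinb3c* per kb was 21.9 to 65.9 in control libraries and 2.03 to 2.82 in *Rora* EKO libraries. Since shares sum to the whole, a larger share of *Serpinb3c* makes the other shares smaller. The ratio of *Serpinb3a* to *Serpinb3b* per kb, which does not involve *Serpinb3c*, was 2.17 to 3.17 in control and 3.8 to 5.46 in *Rora* EKO libraries, without overlap.

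**Figure D3:**
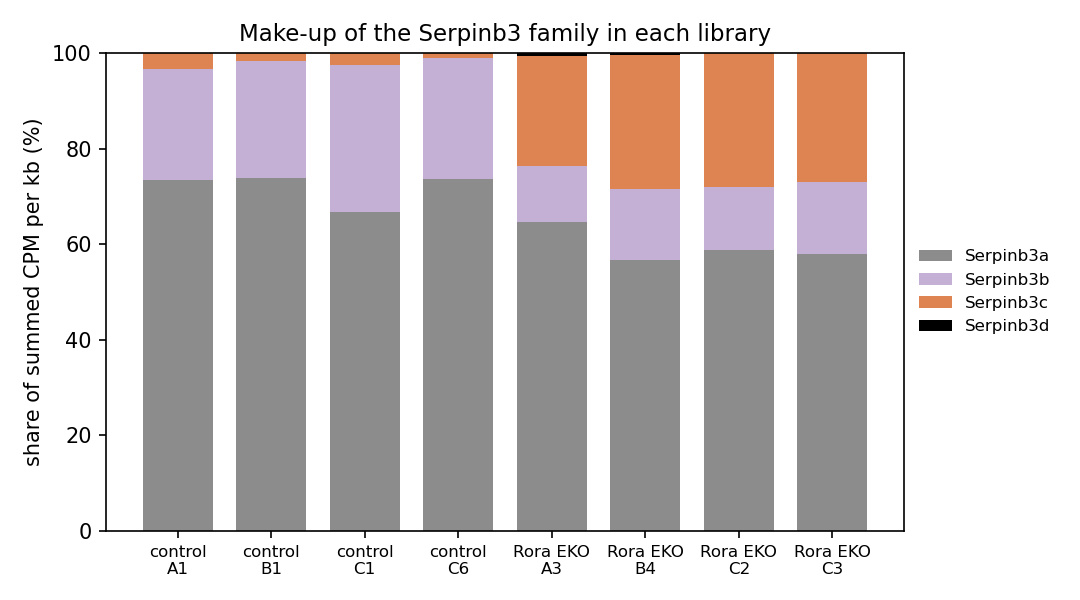
Share of each *Serpinb3* paralog in the summed CPM per kb of the family (percent) in each library, stacked to the whole. *Serpinb3c* fills 1.1 to 3.3% in the controls and 22.9 to 28.0% in the *Rora* EKO libraries, and the *Serpinb3b* band narrows.

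Control A1, the lowest control for *Serpinb3a* and *Serpinb3b*, was not the lowest for *Serpinb3c*, which was C6.

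Reads of near-identical genes can be split by the counting program, so the similarity of the transcripts was set against the counts. Of the 100-base windows of each transcript, 93.5% of *Serpinb3a*, 99.5% of *Serpinb3b*, 99.5% of *Serpinb3c* and 100% of *Serpinb3d* occurred in no other annotated gene. *Serpinb3a* shared windows with *Gm8080*, an unprocessed pseudogene at chr1:106947867-106953055, and *Serpinb3b* and *Serpinb3c* shared 8 windows with each other. The counts showed the same pairs. *Serpinb3a* was not a whole number in 7 of 8 libraries, while its sum with *Gm8080* was whole, within 0.02, in 8 of 8. *Serpinb3b* and *Serpinb3c* were not whole in 1 library, C2, at 2465.32 and 5238.68, and their sum was whole in 8 of 8. *Gm8080* took 0.94 to 2.40% of its sum with *Serpinb3a*, and adding it back gave *Serpinb3a* a log2 fold change of 1.56. The other 4 pseudogenes of the locus held at most 2 counts in any library. With the 4 paralogs summed to 1 row before the fit, so that splitting among them could not matter, the log2 fold change was 1.82.

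The 8 other clade B serpins of the same cluster lie on either side of the family and on the opposite strand, and include *Serpinb5* (maspin) and *Serpinb2* (plasminogen activator inhibitor 2). With edgeR, 0 of 8 passed the cutoffs in either direction, 3 had an unadjusted p below 0.05 and DESeq2 called 0. Of all genes tested, 2.3% passed the cutoffs on the higher side, 3.22% on the lower side and 18.2% had an unadjusted p below 0.05, so 0 of 8 does not set these serpins apart from other genes. The same shares are the background of the lists that follow. Their median log2 fold change was 0.05, and that of all genes tested was -0.04. *Serpinb5* gave 505 ± 82.1 CPM in control and 489 ± 36.6 CPM in *Rora* EKO epidermis (adjusted p = 0.934, edgeR), and *Serpinb12*, next to *Serpinb5*, 378 ± 78.4 and 386 ± 53.3 CPM (adjusted p = 0.964, edgeR). The nearest neighbours of the family on either side were *Serpinb13* (log2 fold change -0.93, SE 0.22, adjusted p = 0.140) and *Serpinb11* (0.77, SE 0.39, adjusted p = 0.262, edgeR), chosen after their values were seen. *Serpinb11* passed the cutoffs without control A1 and, together with *Serpinb2*, when the title letter was a block.

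**Figure D4:**
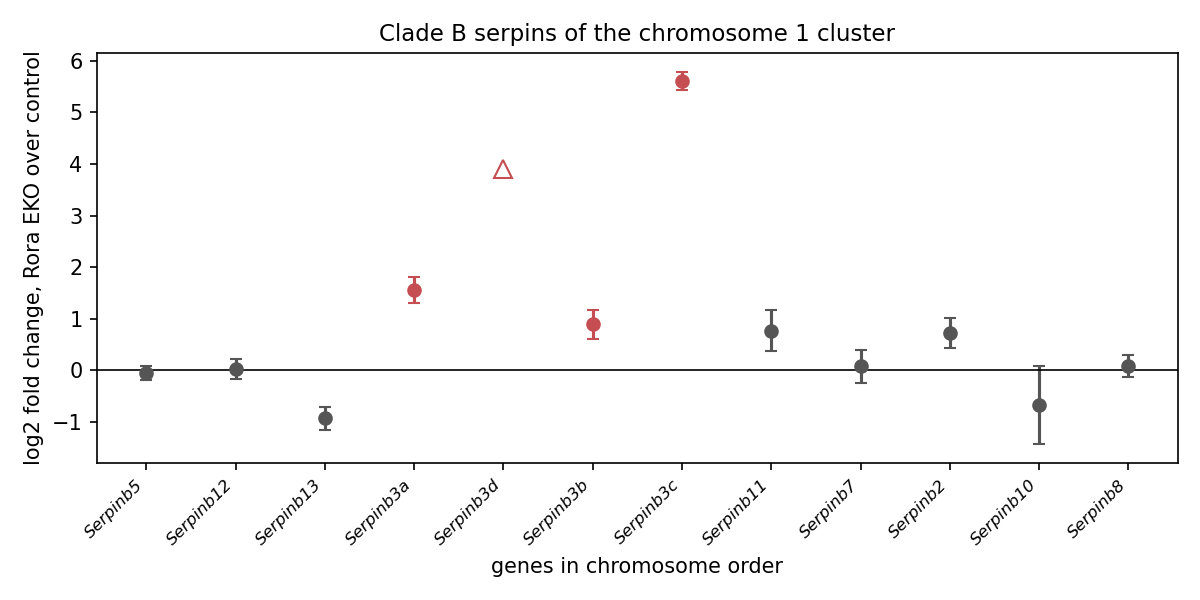
Log2 fold change (*Rora* EKO over control) of the 12 clade B serpins of the chromosome 1 cluster, in chromosome order. Filled points with SE bars are fitted values (red for the *Serpinb3* paralogs, grey for the others), and the open triangle is the lower bound for *Serpinb3d*, 3.90 on the log2 scale. The grey points lie between -0.93 and 0.77, and *Serpinb3c* lies at 5.61.

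The clade B serpins of the chromosome 13 cluster were mostly below the filter, with 3 of 16 tested and a median log2 fold change of 0.79. *Serpinb1a*, an inhibitor of neutrophil proteases, rose from 1.01 ± 0.148 CPM in control to 4.02 ± 1.53 CPM in *Rora* EKO epidermis (log2 fold change 1.99, SE 0.32, adjusted p = 0.00692, edgeR), and lost this call with *Xist* as a covariate and without both *Xist*-expressing controls. In the latter fit *Serpinb6e*, lower, was the 1 gene of the list called. *Serpinb6c* and *Serpinb6a* did not pass (adjusted p = 0.182 and 0.413, edgeR). Of 5 proteases that squamous cell carcinoma antigens inhibit, 2 were tested and 0 passed by edgeR, with 0 at an unadjusted p below 0.05 and 0 by DESeq2. Their median log2 fold change was 0.21. They were cathepsin L (*Ctsl*, 638 ± 555 and 794 ± 362 CPM) and cathepsin S (*Ctss*, 1.62 ± 1.12 and 1.73 ± 0.710 CPM), whose levels spread widely within each genotype.

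Human squamous cell carcinoma antigens are induced by type 2 and type 17 cytokines, so the genes of both pathways were listed. Of 9 genes of the IL-4 and IL-13 pathway, 7 were tested and 0 passed by edgeR, with 0 at an unadjusted p below 0.05, 0 by DESeq2 and a median log2 fold change of 0.26. *Stat6*, its transcription factor, gave 72.3 ± 11.8 and 89.1 ± 8.86 CPM (adjusted p = 0.305, edgeR), and the kinase *Jak1* 72.9 ± 18.3 and 78.9 ± 4.62 CPM (adjusted p = 0.832, edgeR). Of 9 genes of the IL-17 and IL-22 pathway, 6 were tested and 0 passed both cutoffs, with 4 at an unadjusted p below 0.05 (18.2% of all genes), 0 by DESeq2 and a median log2 fold change of 0.42. The 4 were *Stat3*, *Il17rc* and *Nfkbiz*, higher, and *Il22ra1*, lower (log2 fold change -0.77), the last 2 named after their values were seen. *Stat3* had an adjusted p of 0.0488 (edgeR) with a log2 fold change of 0.55, short of the fold cutoff, and the receptor *Il17rc* an adjusted p of 0.217. The cytokine genes *Il4*, *Il17a*, *Il17f* and *Il22* were below the filter on low counts. Apart from *Il13*, the genes tested code for receptors and signalling proteins, and whether either pathway was active was not tested.

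Keratinocyte alarmins and stress keratins mark wounded or inflamed epidermis. Of 13 tested (14 listed), 6 rose and 0 fell, beside 2.3% of all genes tested called higher and 3.22% called lower, with a median log2 fold change of 2.37, also with *Tslp* at its lower bound, against -0.04 for all genes. They were the keratins *Krt16* (155 ± 44.7 to 1520 ± 732 CPM, adjusted p = 0.000911), *Krt6b* and *Krt6a*, the cytokines *Il36b* (58.9 ± 16.4 to 144 ± 35.0 CPM, adjusted p = 0.0110) and *Il33*, and *Tslp* (edgeR throughout). *Tslp* had at most 3 counts in each control library, was at least 9.48-fold higher and passed the filter on low counts through the *Rora* EKO libraries alone, so its call follows in part from the filter. With at least 10 counts required in every library, *Tslp* and *Il33* were not tested and 4 genes were called. *Krt6a* and *Krt6b* are near-identical and could share reads. *Krt17*, the most abundant of the list over both genotypes, did not pass (adjusted p = 0.847). The count was 3 without control B1 or without control C1 and 10 without *Rora* EKO A3, and *Krt16*, *Il36b* and *Tslp* were the ones left in the smaller count. The call of *Il33* was lost when any library but *Rora* EKO A3 was left out, without both *Xist*-expressing controls and with *Xist* as a covariate. The call of *Krt6a* was lost when any library but *Rora* EKO A3 or B4 was left out, without both *Xist*-expressing controls, with *Xist* as a covariate and with the title letter as a block, where *Il36g* was called in its place.

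Among other epidermal protease inhibitors, 4 of 13 tested (18 listed) were called higher and 0 lower, beside the same 2.3% and 3.22% of all genes, with a median log2 fold change of 0.38. At an unadjusted p below 0.05 (edgeR) were 7 of the 13, against 18.2% of all genes. Among the 7 were *Cst3* and *Spint2*, lower (log2 fold change -0.3 for each), named after their values were seen. *Stfa2*, a stefin that inhibits the same cathepsins, rose from 90.9 ± 2.95 to 553 ± 79.8 CPM (log2 fold change 2.61, SE 0.11, adjusted p = 2.34e-05), but the stefin A genes are near-identical and could share reads. *Fetub* (0.584 ± 0.311 to 52.0 ± 30.0 CPM, adjusted p = 0.000492), *Timp3*, an inhibitor of metalloproteases (adjusted p = 0.000749), and *Serpina9* (adjusted p = 0.00409, edgeR throughout) also rose. *Stfa3* and *Spink5*, an inhibitor of kallikreins, were the most abundant of the list and did not pass (adjusted p = 0.0890 and 0.444, edgeR), although *Stfa3* was called higher with DESeq2 and without *Rora* EKO B4. *Fetub* was low in control, and with at least 10 counts required in every library it was not tested and 3 genes were called.

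Summed markers of other cell types did not separate the genotypes as the family did. Neutrophil markers summed to 0 to 0.45 CPM in control and 0.25 to 2.41 CPM in *Rora* EKO libraries, with *Elane* at 0 in all 8, and 0 of 6 passed the filter. Mast cell markers summed to 0.852 to 2.74 and 1.40 to 2.34 CPM, dermal fibroblast markers to 1.23 to 6.12 and 1.48 to 10.1 CPM, and skeletal muscle markers to 0.237 to 3.60 and 0.822 to 4.00 CPM. T cell markers summed to 12.6 to 31.8 and 10.1 to 45.7 CPM, Langerhans cell markers to 62.3 to 180 and 90.5 to 135 CPM, and melanocyte markers to 25.2 to 56.2 and 17.3 to 33.2 CPM. Erythroid markers, which measure blood left in the tissue, summed to 47.8 to 334 and 125 to 1040 CPM. No marker of these lists passed the cutoffs, and the summed ranges of each list overlapped between genotypes. By itself, 1 melanocyte marker was lower in every *Rora* EKO library than in any control library. Whether any of them bears on the *Serpinb3* values was not tested.

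Outside the family, 13143 genes were compared with it, and among the 5 whose log2 CPM followed that of the summed family most closely over the 8 libraries were *Rnf216* (r = 0.991), *Wfdc12* (r = 0.984), *Ebp* (r = 0.975) and *Skint1* (r = 0.975). These are descriptions over libraries of both genotypes, which share depth and scaling, and any gene that separates the genotypes as the family does will rank high. *Wfdc12*, a secreted protein with a protease inhibitor fold, went from 0.932 ± 0.436 to 6.26 ± 1.79 CPM. *Rnf216*, a ubiquitin ligase, *Ebp*, an enzyme of cholesterol synthesis, and *Skint1*, which is needed for the selection of epidermal γδ T cells, had smaller log2 fold changes of 0.58, 0.32 and 0.61. *Skint1* was past both cutoffs, and *Rnf216* and *Ebp* were not.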

How the data were processed

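Polyadenylated RNA of 8 epidermis libraries was sequenced in pairs on stranded libraries. Per the labels and the study's methods, the authors mapped trimmed reads to GRCm39 with STAR 2.5.3a and deposited RSEM expected counts per gene, which are fractional where a read fits several genes. The annotation release is not given in the sources used here. Counts were rounded, filtered with filterByExpr and scaled by TMM, and tested with edgeR 4.0.16 in R 4.3.3 (quasi-likelihood, Benjamini-Hochberg over 13147 genes, 4 against 4 libraries). The fit was tested on simulated data first. DESeq2 1.42.0, other scalings and filters, a letter block, an *Xist* covariate and each library left out were tried. Sequences and gene models are from GRCm39 with GENCODE M39, and promoter shares from the RefSeq table of GRCm38.p6. TATAAA was added to the motifs later. The members and all lists were chosen with earlier results of these data known. Named genes were the members, *Rora*, each list's genes past the cutoffs (at most 6) and its 2 most abundant, and the 5 closest to the family, of which 1 is not reported here. The labels do not say that libraries came from separate litters, so p-values measure the spread between these samples.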

Additional observations from a re-analysis of the deposited data

Results flagged for a closer look

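In 76 groups of 4 libraries, each examined for 1 library whose gap to the nearest of the others took up most of the range, 13 stood out. Chance gives about 1 in 20. In the family this was the share of *Serpinb3a* in control C1, 66.8% against 73.5 to 73.9% in the other controls. *Rora* EKO library B4 was highest for *Krt16* (2610 CPM), *Krt6a* (111 CPM), *Krt6b* (356 CPM), *Serpinb5* (543 CPM), *Serpinb6a* (31.1 CPM) and *Serpinb6c* (23.3 CPM), and lowest for *Ebp* (103 CPM). *Rora* EKO A3 was highest for *Krt17* (1840 CPM). *Rora* EKO C3 was lowest for *Skint1* (14.0 CPM). Among controls, C6 was highest for *Krt6b* (14.8 CPM) and lowest for *Serpinb1a* (0.788 CPM), and A1 was lowest for *Skint1* (7.46 CPM). No *Serpinb3* paralog had an outlying library in CPM.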

How the results depend on the processing

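The log2 fold changes of *Serpinb3a*, *Serpinb3b*, *Serpinb3c* and the 4 summed kept their direction in every alternative run and moved by less than the spread between replicates, from 1.38 to 1.75, 0.69 to 1.24, 5.51 to 5.72 and 1.65 to 2.04. With 1 library left out they ran from 1.38 to 1.72, 0.69 to 1.02, 5.51 to 5.72 and 1.65 to 1.98, and the lower bound of *Serpinb3d* from 9.80 to 18.8. *Serpinb3d* could not be fitted with at least 10 counts in every library. Over all genes, the 302 called higher became 182 with *Xist* as a covariate, 478 with DESeq2 and 147 without both *Xist*-expressing controls (chosen after seeing the data), which also left 167 called lower. With 1 library left out, higher calls ran from 174 to 383 (174 without control B1, 188 without *Rora* EKO C3) and lower calls from 283 to 513. With the title letter as a block, 2 chromosome 1 serpins were called, and 0 to 1 with 1 library left out. Chromosome 13 serpins numbered 3 with all genes of at least 1 count (*Serpinb1a* and *Serpinb6d* higher, *Serpinb6e* lower), 0 with *Xist* as a covariate and 1 to 2 with 1 library left out, where the count of 2 was *Serpinb1a* higher and *Serpinb6e* lower. For IL-17 and IL-22 genes the count was 1 with all genes of at least 1 count (*Stat3*) and 1 with the block (*Nfkbiz*). Alarmins and stress keratins numbered 10 with DESeq2 and 3 to 10 with 1 library left out. The other protease inhibitors ran from 4 to 5 with 1 library left out. Causes were not tested. The titles share a letter between genotypes but no replicate number, and the meaning of the letter is not stated. With that letter as a block, 420 genes were called higher and 579 lower. Deviations from the genotype means correlated across genes at 0.05 to 0.48 in the 6 pairs of libraries with the same letter. In the 10 others they correlated at -0.52 to 0.28, and only A1 with B4 (0.28) was above 0.04. Libraries of the same letter thus tended to deviate together. Since the letter's meaning is not stated, it was used as a block only in an alternative fit. At windows of 50 bases, 84.9 to 87.2% of each transcript was unique, and at 150 bases 96.6 to 100%. Depth limits *Serpinb3d*, whose control level lies under 3 counts per library.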
